A study of Mus musculus with 9 samples.

Results

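The genes described are 10 lipogenic enzymes and regulators of mouse liver, out of 20325 genes in each deposited table. They were taken by gene symbol: the transcription factor genes Srebf1 and Mlxipl, the enzyme genes Acly, Acaca, Acacb, Fasn, Scd1, Elovl6 and Me1, and Thrsp. All 10 were found in each of 9 libraries, with 812 to 305964 expected counts per library, and all 10 passed the filter on low counts.

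The libraries were made from polyadenylated RNA of whole livers of male C57BL/6J mice, 3 livers in each of 3 groups, all on chow. ConvD mice were born germ-free and received cecal contents of conventionally raised donors by a single oral gavage at 15 weeks of age, followed by 4 weeks of colonisation. GF+SCFA mice were also kept germ-free, and short-chain fatty acids were added to their drinking water (acetate at 67.5 mM, propionate at 25.9 mM, butyrate at 40 mM). GF mice were kept germ-free and had no addition to their water. The labels give an age of 14 weeks in one place and dissection at 19 weeks in another. Mice were housed by group, so cage and group cannot be told apart, and the time of day of dissection is not given in the sources used here. The labels name no animal for each liver, so p-values here rest on the spread among these libraries, which may be technical.

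De novo lipogenesis turns surplus carbohydrate into fatty acids. Citrate that leaves the mitochondria is cleaved to acetyl-CoA, carboxylated to malonyl-CoA, built up to palmitate with NADPH as reductant, and then desaturated and elongated. In liver, the genes of the pathway are switched on together after a carbohydrate meal by SREBP1c, which answers to insulin, and by ChREBP, which answers to sugar metabolites.

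Library totals were 18193071 to 21627696 expected counts. Levels of a gene are given as TPM, a transcript abundance that is scaled for transcript length and can be compared between genes. Fold changes come from the counts, scaled between libraries by TMM (CPM, counts relative to the library total), and a gene is called changed where edgeR's quasi-likelihood test gave an adjusted p under 0.05 (Benjamini-Hochberg over 12037 genes). Summed markers of hepatocytes lay at 95607 to 122414 CPM in ConvD and 94786 to 113099 CPM in GF+SCFA livers. In GF livers they lay at 101720 to 117325 CPM, and most of each sum was Alb. Of the 8 tested, 1 was called higher and 2 lower in ConvD than in GF (all genes, 5.93% higher and 6.90% lower). Tat was at 1536, 1301 and 1557 CPM in ConvD livers and 3095, 2699 and 3902 CPM in GF livers. Cps1 was also lower in each ConvD liver than in any GF liver, and Ttr was higher. Of the adipocyte markers, Adipoq, Plin1, Lep and Retn had no count in any library, and the 8 listed markers together summed to 10.3 to 15.6 CPM. Summed macrophage markers were 307 to 470 CPM in ConvD livers, 248 to 310 CPM in GF+SCFA livers and 223 to 273 CPM in GF livers. Of these, 4 of 8 tested were called higher in ConvD than in GF (all genes, 5.93%). Summed neutrophil markers were 7.60 to 13.0 CPM in ConvD livers, 0.218 to 0.680 CPM in GF+SCFA livers and 0.594 to 1.17 CPM in GF livers. Of the 7 listed, 4 passed the filter on low counts. Their germ-free levels were near 0, so they passed only through the ConvD livers, and their calls are not counted as a result. The part of these markers in the differences of the lipogenic genes was not tested. ConvD replicate 3 and GF replicate 3 stood apart from the other livers of their groups. Over all genes the chi-square per degree of freedom was 51.1 and 34.2 for pairs with ConvD replicate 3, against 21.4 for ConvD replicates 1 and 2. It was 54.4 and 40.6 for pairs with GF replicate 3, against 15.3 for GF replicates 1 and 2. Leaving out GF replicate 3 brought the genes called between GF+SCFA and GF livers to 173, against 5 with it. These are bulk livers, in which fewer cells of a type and less RNA per cell cannot be told apart.

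The ATP citrate lyase transcript Acly was higher in ConvD livers than in GF livers and than in GF+SCFA livers, and it was the only lipogenic gene of the 10 called in either comparison. Scd1, Me1 and Fasn had fitted folds of 1.77 to 2.89 in ConvD against GF livers without passing the test. Their ConvD livers ranged from the level of GF livers up to several times it. The transcripts of both transcription factors, Srebf1 and Mlxipl, had folds close to 1. Thrsp was higher in each GF+SCFA liver than in any GF or ConvD liver, at a fold of 2.07 over GF that did not pass. No lipogenic gene was called lower in any of the 3 comparisons.

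By TPM, Scd1 and Thrsp were the most abundant of the 10 in every group and Acaca and Acacb the least. In ConvD livers the order ran Scd1, Thrsp, Acly, Me1, Srebf1, Fasn, Mlxipl, Elovl6, Acaca and Acacb, and only the step from Thrsp down to Acly was wider than the spread of the livers. In GF+SCFA livers Thrsp came above Scd1, with no overlap between their TPM values. In GF livers Scd1 and Thrsp overlapped, and both lay above the other 8 genes. The summed TPM of the 10 genes was 7582, 4805 and 2227 in ConvD livers, 2721, 2898 and 3002 in GF+SCFA livers and 1897, 1936 and 2892 in GF livers. The sum in ConvD replicate 3 was inside the GF range. Scd1 alone made up 68.6%, 58.0% and 43.8% of that sum in ConvD livers, 22.7%, 27.6% and 30.4% in GF+SCFA livers and 34.3%, 50.1% and 44.9% in GF livers.

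**Figure D1:**
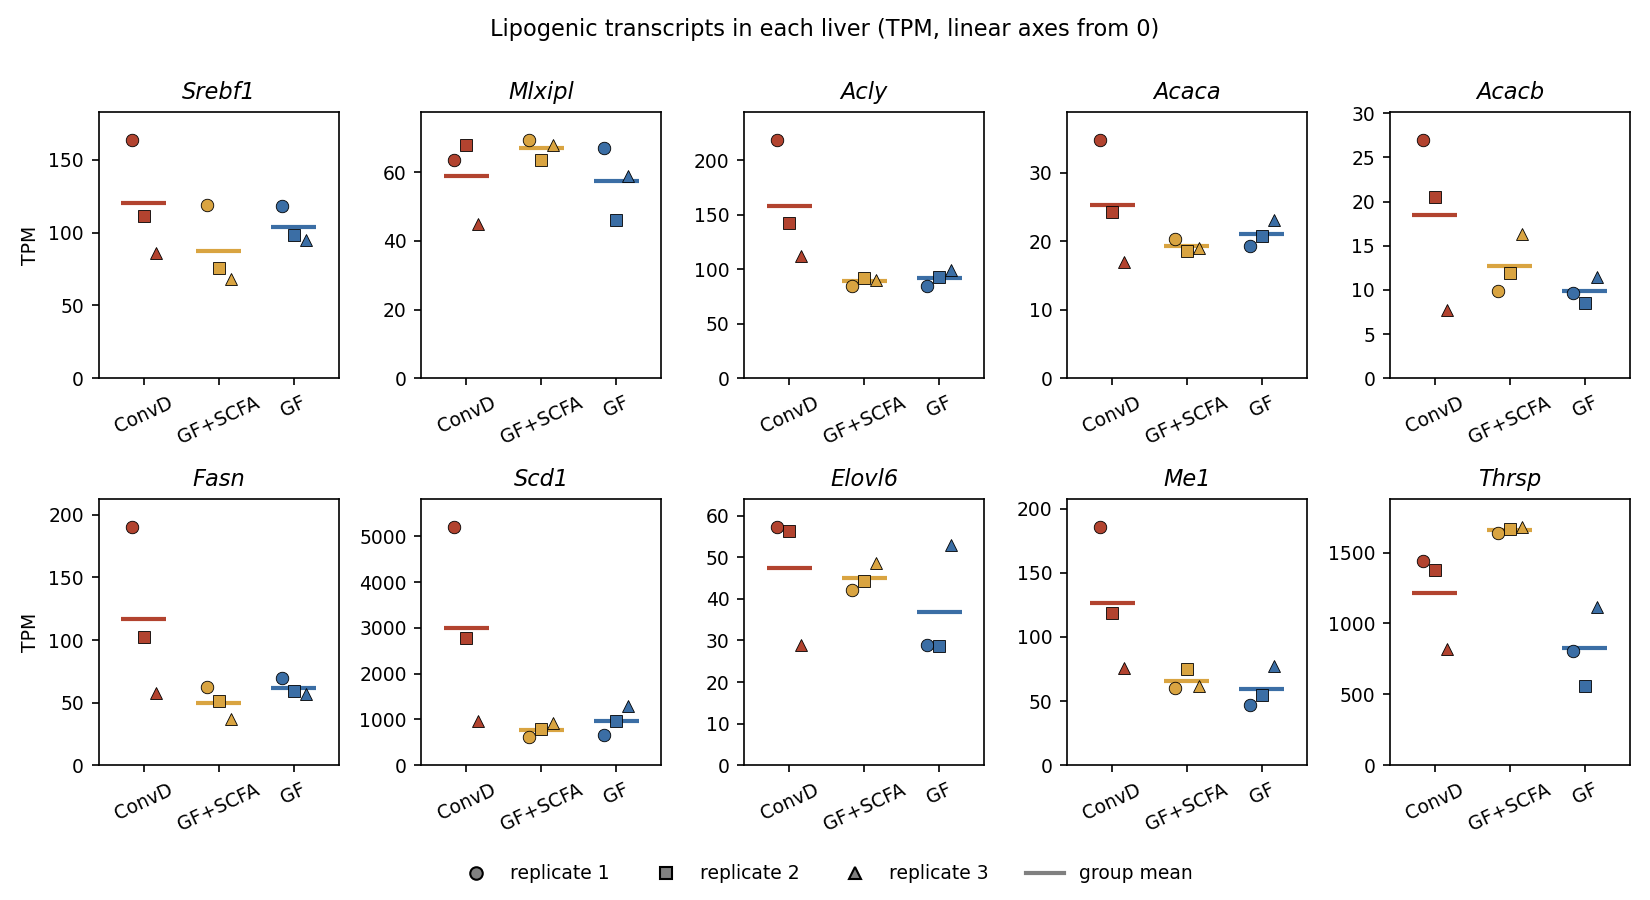
TPM of the 10 lipogenic genes in each liver, in 1 panel per gene with its own linear axis from 0, with ConvD, GF+SCFA and GF livers from left to right. Symbols are replicates and lines are group means. For Scd1 the ConvD livers span 975 to 5199 TPM, and for Thrsp the GF+SCFA livers lie together at 1635 to 1680 TPM.

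Srebf1 encodes SREBP1, the factor that carries the insulin signal to the fatty acid synthesis genes. Its level was 163, 111 and 86.1 TPM in ConvD livers, 119, 75.7 and 68.0 TPM in GF+SCFA livers and 118, 98.3 and 94.7 TPM in GF livers. The 3 groups overlapped, and in both ConvD and GF+SCFA the livers lay on either side of the GF values. The ConvD against GF log2 fold change was 0.13 (SE 0.29, 95% interval -0.56 to 0.82, adjusted p = 0.821). The files give a single transcript model for Srebf1, so its SREBP1a and SREBP1c forms are not separated.

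Mlxipl encodes ChREBP, the carbohydrate-responsive factor that works with Mlx. It had 63.7, 67.9 and 45.1 TPM in ConvD livers, 69.4, 63.6 and 68.0 TPM in GF+SCFA livers and 67.1, 46.0 and 58.9 TPM in GF livers. All groups overlapped, and the ConvD against GF log2 fold change was -0.03 (SE 0.15, 95% interval -0.38 to 0.32, adjusted p = 0.923). Its sign turned under other scalings of the libraries, to 0.05 with library totals.

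Acly makes the cytosolic acetyl-CoA from which fatty acids are built. It had 218, 142 and 112 TPM in ConvD livers, 84.8, 91.6 and 90.0 TPM in GF+SCFA livers and 84.9, 92.7 and 99.0 TPM in GF livers. Every ConvD liver lay above all 6 germ-free livers, and ConvD replicate 3 was nearest to them. The group means were 158 ± 54.7 TPM in ConvD, 88.8 ± 3.57 TPM in GF+SCFA and 92.2 ± 7.07 TPM in GF livers (SD, n = 3 each). ConvD livers had a log2 fold change of 0.69 against GF (SE 0.17, 1.61-fold, adjusted p = 0.0347). Against GF+SCFA it was 0.73 (SE 0.18, 1.65-fold, adjusted p = 0.0222). The call against GF was kept in 2 of the 9 fits that left out a library (without ConvD replicate 1 and without ConvD replicate 3), and over all alternatives the adjusted p ran from 0.000339 to 0.105.

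Me1, cytosolic malic enzyme, supplies NADPH and recycles carbon left after citrate cleavage. It had 186, 119 and 75.7 TPM in ConvD livers, 60.6, 75.3 and 62.0 TPM in GF+SCFA livers and 47.0, 54.9 and 77.5 TPM in GF livers. In TPM the lowest ConvD liver fell just under the highest GF liver, and in TMM-scaled CPM all 3 ConvD livers were above all 3 GF livers. The log2 fold change against GF was 1.01 (SE 0.30, 2.01-fold, 95% interval 0.29 to 1.73) with an unadjusted p of 0.0133 and an adjusted p of 0.0769.

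Acaca and Acacb encode the 2 acetyl-CoA carboxylases, of which the Acaca product makes malonyl-CoA for synthesis and the Acacb product makes it at the mitochondrial surface, where it restrains fatty acid uptake for oxidation. Acaca had 34.8, 24.2 and 17.0 TPM in ConvD livers, 20.3, 18.6 and 19.0 TPM in GF+SCFA livers and 19.3, 20.8 and 23.1 TPM in GF livers. Acacb had 26.95, 20.6 and 7.76 TPM in ConvD livers, 9.89, 11.9 and 16.4 TPM in GF+SCFA livers and 9.61, 8.47 and 11.5 TPM in GF livers. For both genes ConvD replicates 1 and 2 were above every GF liver and ConvD replicate 3 was below every GF liver. The ConvD against GF log2 fold changes were 0.19 for Acaca (SE 0.20, adjusted p = 0.582) and 0.82 for Acacb (SE 0.43, adjusted p = 0.270). In TPM, the ratio of Acacb to Acaca was 0.775, 0.849 and 0.458 in ConvD livers, 0.486, 0.642 and 0.862 in GF+SCFA livers and 0.499, 0.408 and 0.498 in GF livers, so Acaca was the more abundant in each liver.

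Fasn encodes fatty acid synthase, which builds palmitate. It had 190, 103 and 57.7 TPM in ConvD livers, 62.7, 51.0 and 36.6 TPM in GF+SCFA livers and 69.3, 59.2 and 56.7 TPM in GF livers. ConvD replicates 1 and 2 were above all germ-free livers and replicate 3 lay among the GF values. The log2 fold change was 0.82 against GF (SE 0.42, 1.77-fold, adjusted p = 0.256) and 1.11 against GF+SCFA (SE 0.42, 2.15-fold, unadjusted p = 0.0366, adjusted p = 0.123).

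Scd1 encodes the main stearoyl-CoA desaturase of liver, which makes monounsaturated fatty acids. It had 5199, 2785 and 975 TPM in ConvD livers, 617, 799 and 914 TPM in GF+SCFA livers and 650, 970 and 1300 TPM in GF livers. The ConvD livers spanned the widest range of the 10 genes, with the highest 4.83 times the lowest in CPM, and the lowest ConvD liver lay inside the GF range but above the GF+SCFA livers. The log2 fold change was 1.53 against GF (SE 0.57, 2.89-fold, 95% interval 0.15 to 2.91, adjusted p = 0.138) and 1.82 against GF+SCFA (SE 0.57, 3.54-fold, adjusted p = 0.0774). Scd1 took 1.57%, 0.868% and 0.313% of all expected counts in ConvD livers, 0.195%, 0.250% and 0.290% in GF+SCFA livers and 0.206%, 0.300% and 0.391% in GF livers.

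Elovl6 encodes the elongase that lengthens palmitate to stearate. It had 57.2, 56.2 and 28.8 TPM in ConvD livers, 42.2, 44.3 and 48.7 TPM in GF+SCFA livers and 28.9, 28.6 and 53.0 TPM in GF livers. ConvD replicate 3 and GF replicates 1 and 2 were low and close together, and the groups overlapped. The log2 fold change of ConvD against GF was 0.31 (SE 0.30, adjusted p = 0.557). The ratio of Scd1 to Elovl6 in TPM was 90.8, 49.5 and 33.8 in ConvD livers, 14.6, 18.1 and 18.8 in GF+SCFA livers and 22.5, 33.9 and 24.5 in GF livers.

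Thrsp encodes Spot 14, a small nuclear and cytosolic protein whose transcript follows thyroid hormone and carbohydrate and which is needed for full rates of lipogenesis in some tissues. It had 1442, 1377 and 822 TPM in ConvD livers, 1635, 1667 and 1680 TPM in GF+SCFA livers and 802, 557 and 1118 TPM in GF livers. The GF+SCFA livers were the highest of all 9 and differed from each other by 1.04-fold in CPM, and ConvD replicate 3 lay among the GF livers. The ConvD against GF log2 fold change was 0.50 (SE 0.24, adjusted p = 0.230).

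Promoter sequence was available from RefSeq (GRCm38.p6) for 9 of the 10 genes, in 13 windows of 250 bases that end at an annotated start, and was searched on both strands for letters bound by factors of this pathway. The SREBP-type letters TCACNCCAC were in 1 of the 13 windows, upstream of an Mlxipl start, and in 1.05% of 32851 promoter windows of the same length. The E-box letters CACGTG, the core of ChREBP and USF elements, were also in 1 window, again of Mlxipl, against 6.02% of all windows. The letters CCAAT, bound by NF-Y, were in 7 of 13 windows (Acacb, Fasn, Me1, Mlxipl, Srebf1 and Thrsp), against 33.8% of all windows. The GC-box letters GGGCGG, bound by Sp factors, were in 5 of 13 (Acly, Me1, Mlxipl and Srebf1), against 32.7%. A match describes these letters in this window, not a bound site. The windows shown, printed 5′ to 3′ on the gene's strand and each ending at the base before the start, are that of Acly, the gene called, that of Fasn, the synthase, and that of Mlxipl, the only gene searched with an E-box match. Capitals mark the matches.
Acly, chr11:100528001-100528250, minus strand: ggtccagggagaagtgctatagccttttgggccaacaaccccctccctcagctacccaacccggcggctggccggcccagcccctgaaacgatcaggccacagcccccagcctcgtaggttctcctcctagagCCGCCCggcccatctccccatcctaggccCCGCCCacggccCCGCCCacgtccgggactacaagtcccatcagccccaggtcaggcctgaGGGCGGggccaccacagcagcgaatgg
Fasn, chr11:120824548-120824797, minus strand: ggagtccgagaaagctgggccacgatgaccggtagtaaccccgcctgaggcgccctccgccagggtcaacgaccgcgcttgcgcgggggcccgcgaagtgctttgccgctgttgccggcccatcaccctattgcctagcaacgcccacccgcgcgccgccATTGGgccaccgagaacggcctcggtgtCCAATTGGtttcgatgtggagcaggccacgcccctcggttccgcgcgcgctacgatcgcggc
Mlxipl, chr5:135089640-135089889, plus strand: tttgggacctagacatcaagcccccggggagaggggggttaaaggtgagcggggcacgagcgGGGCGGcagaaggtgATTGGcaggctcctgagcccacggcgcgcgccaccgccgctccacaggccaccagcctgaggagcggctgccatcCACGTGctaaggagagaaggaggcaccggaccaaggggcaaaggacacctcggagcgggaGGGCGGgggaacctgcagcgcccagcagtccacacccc
In the Acly window 3 GC boxes lie on the opposite strand, at 117 to 112, 88 to 83 and 76 to 71 bases before the start, and a 4th lies on the gene's strand at 27 to 22. The Fasn window holds 3 CCAAT matches, at 90 to 86, 62 to 58 and 59 to 55 bases before the start, of which the last pair overlap on opposite strands. In the Mlxipl window the E-box is 98 to 93 bases before the start, between GC boxes at 188 to 183 and 38 to 33, with a CCAAT match on the opposite strand at 173 to 169. The SREBP-type match of Mlxipl lies in its other window, which is not printed.

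The comparison of ConvD with GF livers asks what colonisation of a germ-free animal changes. Of the 10 lipogenic genes 1 was called higher and 0 lower, against 12.8% of all tested genes called, 5.93% higher and 6.90% lower. By DESeq2 the calls were 3 (Acly, Scd1 and Me1), against 12.9% of all genes. At an unadjusted p under 0.05 there were 3 of 10 (Acly, Me1 and Scd1), against 28.6% of all genes, a share close to that background. In 2 of 10 genes (Acly and Me1) the CPM values of the groups did not overlap, and in both ConvD was higher. Among all genes 31.6% did not overlap, 15.7% with ConvD higher and 15.9% with ConvD lower. Fold changes were positive for 9 of the 10 genes and 50.5% of all genes, and for all 10 with upper-quartile or library-total scaling. The median log2 fold change was 0.59 over the 10 genes and 0.00 over all tested genes. Without ConvD replicate 1 the median of the 10 genes was 0.37 and 7 were positive. The split of all calls depended on scaling: 46.2% were higher with TMM, 66.1% with upper-quartile factors and 73.1% with library totals.

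**Figure D2:**
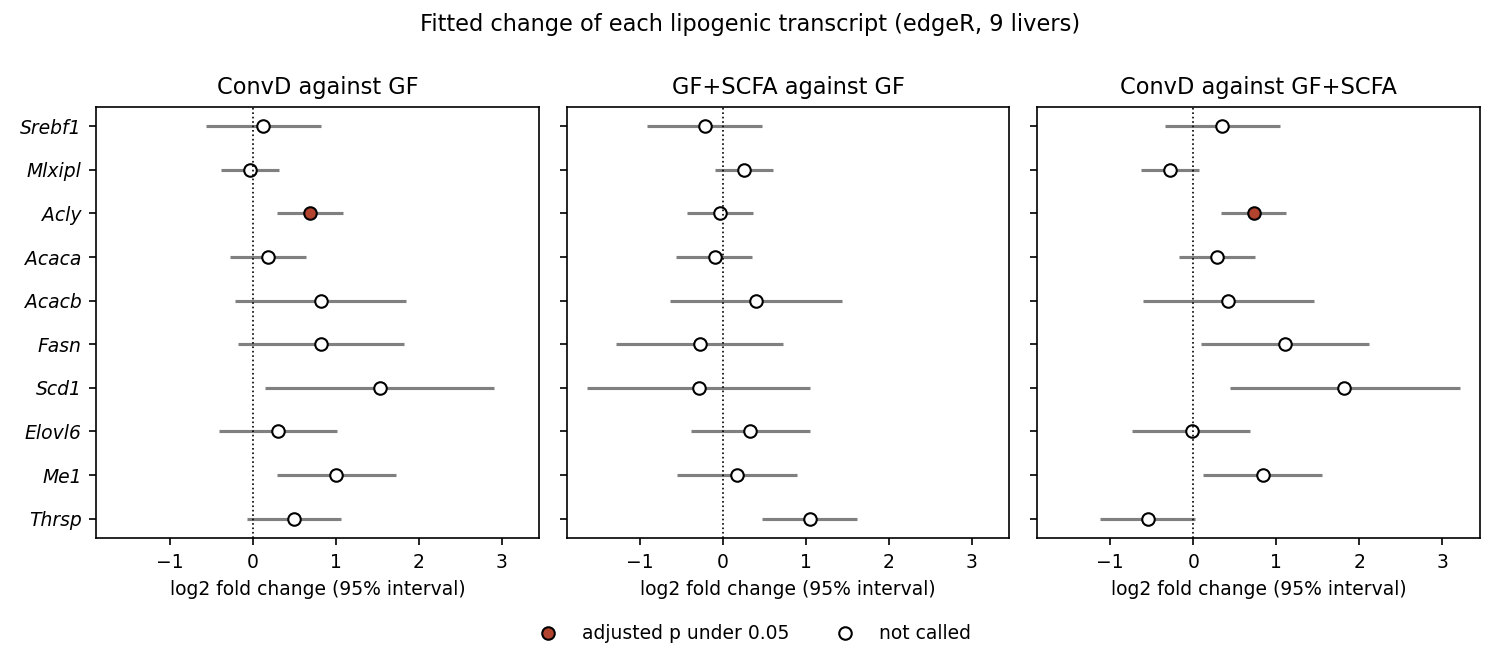
Log2 fold changes of the 10 genes (x axis) with 95% intervals in panels for ConvD against GF, GF+SCFA against GF and ConvD against GF+SCFA livers, from edgeR. Filled points passed an adjusted p of 0.05. Acly is filled in both comparisons that contain ConvD, and the widest intervals belong to Scd1.

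The 10 genes varied more between ConvD livers than most genes did. The SD of log2 CPM over the 3 ConvD livers was 0.27 to 1.15 for the 10 genes, with a median of 0.48, against a median of 0.13 over all tested genes. All 10 exceeded that median. For Scd1 99.9% of tested genes had a smaller SD, for Acacb 99.7%, for Fasn 99.6%, and for Mlxipl, the least variable of the 10, 87.4%. In GF+SCFA livers the median SD of the 10 genes was 0.12 against 0.11 for all genes, and in GF livers it was 0.24 against 0.13. These spreads were noticed in the data and are given as a description, with no test.

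**Figure D3:**
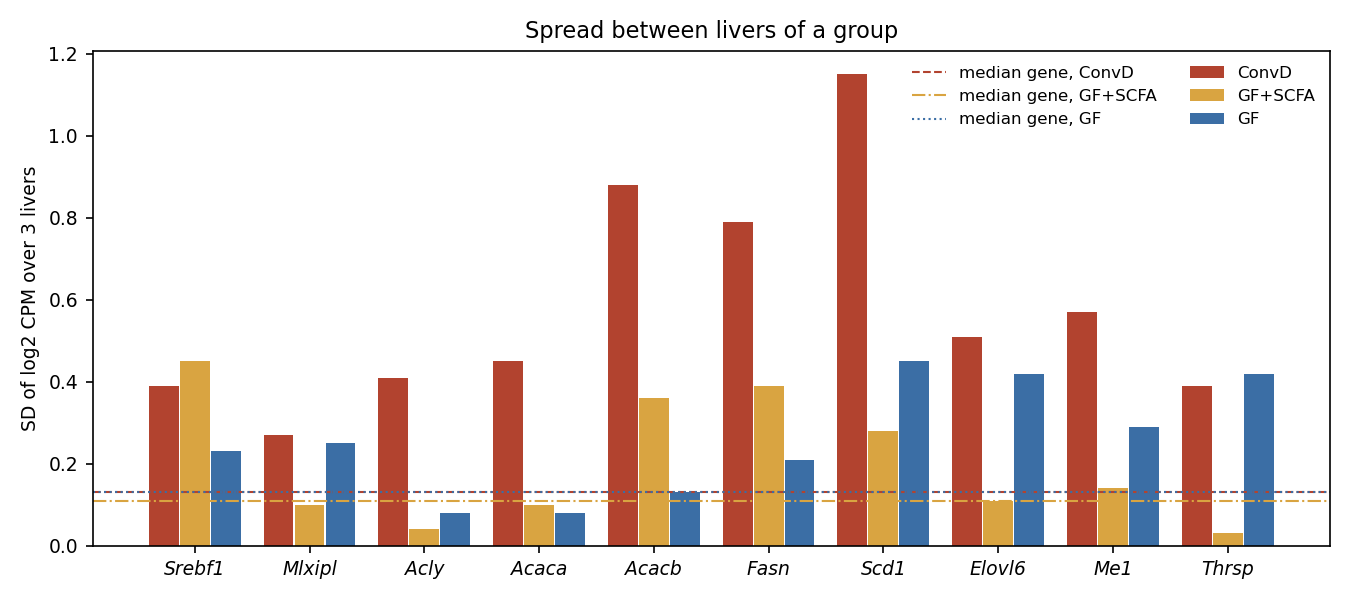
SD of log2 CPM over the 3 livers of a group for each of the 10 genes (bars from 0, in the order ConvD, GF+SCFA and GF), with a line at the median of all tested genes in each group. The ConvD and GF lines coincide at 0.13. Scd1 in ConvD livers is highest, at 1.15.

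The ConvD livers kept the same order for most of the genes. Replicate 3 was the lowest ConvD liver for 10 of 10 genes, against 36.7% of all tested genes. Replicate 1 was the highest for 7 of them (Srebf1, Acly, Acaca, Acacb, Fasn, Scd1 and Me1), against 31.1% of all genes, and replicate 2 for Mlxipl, Elovl6 and Thrsp. As folds of the GF mean in CPM, Scd1 stood at 4.88, 2.78 and 1.01 in ConvD replicates 1, 2 and 3. Fasn stood at 2.78, 1.59 and 0.930 and Me1 at 2.83, 1.93 and 1.28. In CPM, replicate 1 was above the whole GF range for 9 of the 10 genes (all but Mlxipl) and replicate 2 for 8. Replicate 3 was above it for Acly and Me1 and below it for Srebf1, Mlxipl, Acaca, Acacb and Elovl6. Among all tested genes 31.4%, 32.8% and 32.5% were above the GF range in ConvD replicates 1, 2 and 3, and 31.6%, 31.6% and 31.5% below it. For Srebf1 (240 against 247 CPM in the lowest GF liver) and Elovl6 (112 against 115 CPM) replicate 3 was only just below. Replicate 3 was the highest or the lowest ConvD liver in 72.8% of all tested genes, replicate 1 in 62.9% and replicate 2 in 64.3%.

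Some cell markers also differed between the ConvD livers. Summed hepatocyte markers, for the most part Alb, were 106213, 122414 and 95607 CPM in ConvD replicates 1, 2 and 3. Macrophage markers were 307, 470 and 439 CPM and blood markers 280, 888 and 617 CPM, both lowest in replicate 1. Cholangiocyte markers were 62.6, 56.3 and 40.3 CPM, for the most part Spp1 (57.1, 51.2 and 36.8 CPM). Spp1, Krt7 and Epcam ran in the same order as Scd1 and Fasn, while Krt19 and Sox9 were highest in replicate 2. Apart from Spp1, these markers were at most 2.15 CPM in ConvD livers. Neutrophil markers were 8.69, 13.0 and 7.60 CPM. Of the adipocyte markers, which summed to 15.6, 14.5 and 15.0 CPM, Cfd was at 6.60, 3.95 and 1.38 CPM in ConvD livers, 1.13, 1.79 and 0.76 CPM in GF+SCFA livers and 0.38, 0.69 and 1.27 CPM in GF livers, while Adipoq, Plin1, Lep and Retn had no count. Adrb3, at 3.79, 4.88 and 6.91 CPM, and Fabp4, at 4.85, 5.42 and 6.59 CPM in ConvD replicates 1, 2 and 3, ran in the opposite order. The part of these markers in the spread of the lipogenic genes was not tested. Without ConvD replicate 3, 5 of the 10 genes were called higher in ConvD than in GF (Acly, Acaca, Acacb, Scd1 and Me1) against 12.1% of all genes tested in that fit, with log2 fold changes of 1.94 for Scd1, 1.17 for Acacb and 0.38 for Acaca. Without ConvD replicate 1 the call was Acly alone, against 7.72% of all genes, with log2 fold changes of 0.92 for Scd1 and 0.34 for Fasn.

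Setting GF+SCFA against GF livers asks what the main acids of gut fermentation change without microbes. Of the 10 genes 0 were called in edgeR, against 0.0415% of all tested genes, 0.00831% higher and 0.0332% lower. By DESeq2 1 was called, Thrsp, against 0.681% of all genes. At an unadjusted p under 0.05 there was 1 of 10, again Thrsp, against 12.3% of all genes. Thrsp was also the single gene of the 10 whose CPM values did not overlap, being higher in GF+SCFA. Among all genes 17.9% did not overlap, 9.06% with GF+SCFA higher and 8.86% with GF+SCFA lower. The median log2 fold change was 0.07 over the 10 genes and -0.01 over all genes, and 5 of the 10 were positive.

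For Thrsp the log2 fold change of GF+SCFA against GF was 1.05 (SE 0.25, 2.07-fold, 95% interval 0.47 to 1.62), with an unadjusted p of 0.00328 and an adjusted p of 0.218. Across the alternatives the adjusted p lay between 0.0132, by DESeq2, and 0.489, without GF replicate 2. GF replicate 3 was the GF liver nearest to the GF+SCFA livers in Thrsp, and without it the adjusted p was 0.0686. The 95% intervals of the other genes come from the model fitted to all groups, so the spread of the ConvD livers also enters their width. The median SD of log2 CPM of the lipogenic genes was 0.48 in ConvD livers, 0.12 in GF+SCFA livers and 0.24 in GF livers. The intervals therefore show what that model leaves possible, not what the germ-free livers alone do. Intervals from the germ-free livers alone are not given. For Acly the interval was -0.43 to 0.36 around a log2 fold change of -0.03, for Fasn -1.29 to 0.72 around -0.28, and for Scd1 -1.64 to 1.05 around -0.29. The interval for Srebf1 was -0.92 to 0.47 and that for Mlxipl -0.10 to 0.60. A 2-fold change in either direction lies outside the intervals of Acly, Mlxipl and Srebf1. A 2-fold decrease lies inside those of Fasn and Scd1. A 2-fold increase lies inside those of Scd1, Acacb (-0.64 to 1.43) and Elovl6 (-0.39 to 1.05).

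The comparisons of ConvD and of GF+SCFA with GF share the same GF livers, so the direct contrast between ConvD and GF+SCFA gives the difference itself. Of the 10 genes 1 (Acly) was called higher in ConvD and 0 lower, against 18.4% of all tested genes, 9.44% higher and 8.97% lower. DESeq2 called 4 (Acly, Fasn, Scd1 and Me1), against 17.3% of all genes. These were also the 4 with an unadjusted p under 0.05 in edgeR, against 33.1% of all genes. Acly, Scd1 and Me1 were higher in every ConvD liver than in every GF+SCFA liver, and Thrsp was lower in every ConvD liver. Among all genes 38.0% did not overlap, 19.0% with ConvD higher and 18.9% with ConvD lower. The log2 fold change of Me1 was 0.84 (SE 0.30, 1.79-fold, adjusted p = 0.105) and that of Thrsp -0.55 (SE 0.24, 0.683-fold, adjusted p = 0.162). Elovl6 was level, at -0.02 with a 95% interval of -0.74 to 0.69. Without ConvD replicate 3, 5 genes were called (Acly, Acaca, Fasn, Scd1 and Me1), against 17.0% of all genes tested in that fit.

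Other genes of fat synthesis were read in 6 lists of 72 genes, of which 67 were tested. In ConvD against GF livers 9 were called higher and 5 lower (all genes, 5.93% higher and 6.90% lower), with a median log2 fold change of 0.03. Among genes that supply carbon, 1 of 9 was called: Khk, ketohexokinase, the entry enzyme of fructose, with 573, 512 and 414 TPM in ConvD livers and 306, 318 and 412 TPM in GF livers (log2 fold change 0.47, adjusted p = 0.00659). ConvD replicate 3 was the lowest ConvD liver here as well, just above the highest GF liver. Without it, 3 of the 9 genes were called, all higher, against 12.1% of all genes in that fit. Pklr, the liver pyruvate kinase, had a log2 fold change of 0.96 (adjusted p = 0.0989) and Acss2, which activates acetate in the cytosol, had 0.63 (adjusted p = 0.0709).

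Of 8 genes listed for NADPH supply, 2 were called higher (all genes, 5.93%). That list also holds pentose phosphate enzymes that make no NADPH themselves. Pgd, phosphogluconate dehydrogenase, which makes NADPH, had 38.5, 30.5 and 26.5 TPM in ConvD livers, 18.1, 20.6 and 20.3 TPM in GF+SCFA livers and 18.6, 20.1 and 19.6 TPM in GF livers. Tkt, transketolase, of the branch of that pathway that makes none, had 80.7, 69.6 and 61.8 TPM in ConvD livers, 48.7, 49.9 and 46.9 TPM in GF+SCFA livers and 49.6, 53.6 and 51.0 TPM in GF livers. In both genes all ConvD livers lay above all germ-free livers. Their log2 fold changes against GF were 0.63 for Pgd (adjusted p = 0.00155) and 0.38 for Tkt (adjusted p = 0.00736). G6pdx, the entry enzyme of the pathway, had 0.59 (adjusted p = 0.0637).

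Among partners in desaturation and elongation 0 of 11 were called by edgeR, and 4 had an unadjusted p under 0.05 (all genes, 28.6%). DESeq2 called 3 (Fads2, Elovl3 and Elovl5), against 12.9% of all genes. Without ConvD replicate 3 edgeR called 4, of which 3 were higher and 1 lower, against 12.1% of all genes in that fit. Without ConvD replicate 1 it called 3, all lower, against 7.72% of all genes. Elovl5, an elongase of polyunsaturated fatty acids, had 339, 195 and 129 TPM in ConvD livers, 95.1, 117 and 112 TPM in GF+SCFA livers and 85.2, 106 and 122 TPM in GF livers. Its ConvD livers showed the same order as those of Scd1 and Fasn, with replicate 3 just above the germ-free livers (log2 fold change against GF 1.00, adjusted p = 0.0855). Fads2, the delta-6 desaturase, had -0.64 (adjusted p = 0.101). Elovl3 had the smallest adjusted p of the list, 0.0582, at a log2 fold change of 0.60. It had 88.2, 62.9 and 72.7 TPM in ConvD livers, with replicate 2 lowest, and 48.9, 38.4 and 53.3 TPM in GF livers. In GF+SCFA against GF its log2 fold change was 0.63 (adjusted p = 0.258).

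Of 15 genes that process SREBP1 or act with it, 1 was called (all genes, 12.8%): Insig2, which holds SREBP in the endoplasmic reticulum. It had 90.9, 63.0 and 71.4 TPM in ConvD livers, 64.1, 79.4 and 73.8 TPM in GF+SCFA livers and 36.0, 40.4 and 57.1 TPM in GF livers. Both ConvD and GF+SCFA livers were above all GF livers, and the call in ConvD (log2 fold change 0.64, adjusted p = 0.0226) was lost without GF replicate 2, ConvD replicate 1 or ConvD replicate 3. Of 8 genes that restrain acetyl-CoA carboxylase, subunits of AMP-activated kinase among them, 0 were called by edgeR and by DESeq2 and 1 had an unadjusted p under 0.05 (all genes, 28.6%). Without GF replicate 2 or without ConvD replicate 2, 1 was called, lower (all genes called in those fits, 8.61% and 7%). Prkaa2, a catalytic subunit, had a log2 fold change of -0.27 (adjusted p = 0.0611).

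Triglyceride assembly had the most calls, 5 higher and 5 lower of 16 (all genes, 5.93% higher and 6.90% lower). Without ConvD replicate 1 there were 5 (2 higher and 3 lower), against 7.72% of all genes. By limma there were 6 (4 higher and 2 lower), against 7.91% of all genes. Pnpla3, a lipase-like protein of lipid droplets that is a known SREBP1c target, had 1.10, 1.05 and 0.25 TPM in ConvD livers, 0.09, 0.10 and 0.07 TPM in GF+SCFA livers and 0.05, 0.06 and 0.12 TPM in GF livers. At this low level every ConvD liver was above every germ-free liver, again with replicate 3 lowest. The log2 fold change against GF was 3.27, over a reference near 0. With germ-free livers at 0.05 to 0.12 TPM, the gene reached the test through ConvD livers. Its call among the 5 higher was therefore favoured by the filter on low counts. Acsl5, Gpam, Lpin3 and Mogat1 were also higher. Mogat1 was low as well, at 1.73, 0.88 and 1.00 TPM in ConvD livers and 0.57, 0.19 and 0.41 TPM in GF livers. DESeq2 did not call Mogat1. Its GF+SCFA livers, at 0.88, 1.15 and 0.86 TPM, also lay above all GF livers. Dgat2, which adds the last fatty acid, had 291, 269 and 286 TPM in ConvD livers, 357, 360 and 361 TPM in GF+SCFA livers and 353, 368 and 422 TPM in GF livers. It was lower in all ConvD livers than in any germ-free liver (log2 fold change against GF -0.50, adjusted p = 0.000854). Also called lower against GF were the acyl-CoA synthetase gene Acsl4 (-0.60, adjusted p = 0.00257), Acsl1, Acsl3 and Agpat1. Against GF+SCFA livers Acsl3 overlapped and was not called (-0.12, adjusted p = 0.446).

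**Figure D4:**
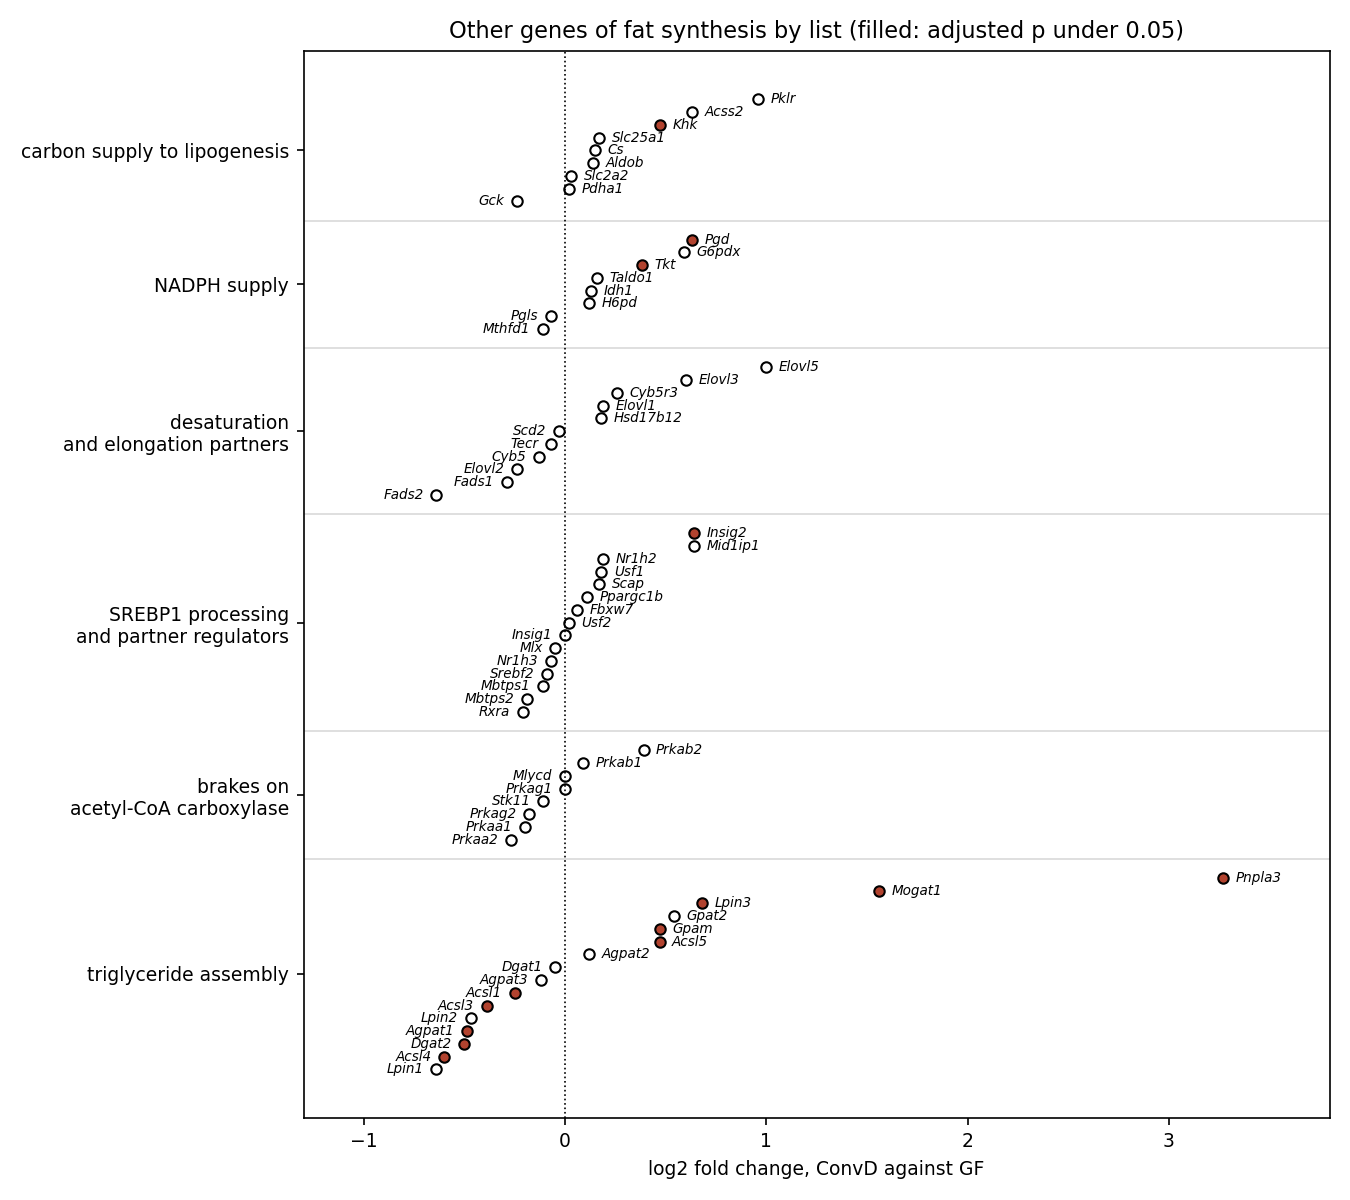
Log2 fold changes of ConvD against GF livers (x axis) for the 67 tested genes of the 6 lists, sorted within each list. Filled points passed an adjusted p of 0.05 in edgeR. Pnpla3, which was near 0 in germ-free livers, lies farthest to the right, at 3.27, and the triglyceride assembly genes fall on both sides of 0.

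In GF+SCFA against GF livers 0 of the 67 genes were called by edgeR, and 10 had an unadjusted p under 0.05 (all genes, 12.3%). DESeq2 called 3 (Elovl3, Insig2 and Agpat2), against 0.681% of all genes. In ConvD against GF+SCFA livers 10 were called higher and 9 lower (all genes, 9.44% higher and 8.97% lower). Those higher included Acss2 (1.75-fold, adjusted p = 0.0248), G6pdx, Pgd, Tkt and Scap, the SREBP escort (1.31-fold, adjusted p = 0.00666). Those lower included Nr1h3, which encodes the oxysterol receptor LXR alpha (0.862-fold, adjusted p = 0.0274). Replicate 3 was the lowest ConvD liver in 38 of the 67 genes (56.7%), against 36.7% of all tested genes. By list this was 9 of 11 for desaturation and elongation, 7 of 9 for carbon supply and 5 of 8 for NADPH supply. It was 4 of 8 for restraint of acetyl-CoA carboxylase, 7 of 15 for SREBP1 processing and 6 of 16 for triglyceride assembly.

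The genes whose CPM profile over the 9 livers was most like the mean standardised profile of the 10 were Pcyt2, Samm50, Cln3, Tlcd1, Rusc1, Mgat4b, Aacs and Pigc, with Pearson's r of 0.974 to 0.916 as a description. The 9 points hold 3 groups, so the likeness includes differences between groups. That mean profile, in SD units, was 1.51, 0.81 and -0.75 in ConvD livers, 0.04, -0.25 and -0.11 in GF+SCFA livers and -0.42, -0.62 and -0.20 in GF livers. Acacb followed it most closely of the 10 genes (r = 0.91, itself included in the mean), and Mlxipl least (r = 0.31). Aacs, acetoacetyl-CoA synthetase, which feeds ketone carbon into lipid synthesis, had 201, 167 and 57.6 CPM in ConvD livers, 78.3, 60.6 and 69.5 CPM in GF+SCFA livers and 48.6, 78.1 and 64.6 CPM in GF livers. As in Fasn, ConvD replicates 1 and 2 were high and replicate 3 lay among the GF livers (2.23-fold, adjusted p = 0.163). The rest of the 8 had smaller folds in ConvD against GF, from 1.08 for Pigc to 1.32 for Rusc1. Pcyt2, the closest by r, had 1.15.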

How the data were processed

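Liver RNA was sequenced as TruSeq Stranded mRNA libraries, per the labels' protocols. Bowtie2, RSEM 1.2.23 and the build mm9 are named in the submitters' processing notes. The strand setting is not given in the sources used here. Antisense genes that overlap may therefore share reads. The deposited expected counts are estimates by the authors, not normalised, and 46.7% of those above 0 were not whole (tolerance 0.005). The deposited TPM values were scaled by the authors for length and depth.

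Expected counts were rounded and analysed in edgeR 4.0.16 (R 4.3.3): filterByExpr with a minimum count of 10, TMM, and 1 robust quasi-likelihood model of 9 libraries in 3 groups (6 residual degrees of freedom). The quasi-likelihood F test was adjusted by Benjamini-Hochberg over 12037 genes. The SE of a log2 fold change is its size over the root of F. DESeq2 1.42.0 and limma 3.58.1 on log2(TPM + 0.5) were alternatives. TMM factors were 0.935 to 1.06 and the biological coefficient of variation 10.6%. Libraries of a group differed with a chi-square of 11.4 to 54.4 per degree of freedom, so none were copies.

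The 10 genes and the lists were chosen with earlier results of these data known. Named from the lists were up to 4 genes each with the smallest adjusted p in ConvD against GF, and the 8 genes most like the 10 over all livers. Further list genes that were called, and the DESeq2 calls, were named after their values were seen. Of 72 list genes, Tkfc and Gpat4 were not matched and Scd3, Scd4 and Mogat2 did not pass the filter. Promoters came from RefSeq (GRCm38.p6) by symbol. Scd1 is named only.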

Additional observations from a re-analysis of the deposited data

How the results depend on the processing

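With 3 livers a group and 1 liver able to move a mean, the number of lipogenic genes called depended on the setting more than their direction did. Of 540 alternative values of single genes, 489 kept direction and side of the threshold, 24 passed it newly, 14 lost it and 13 changed sign. Percentages in brackets are shares of all genes called under the same setting. Lipogenic genes called in ConvD against GF (1 as reported, 12.8%) were 3 by DESeq2 (12.9%), 0 with no low-count filter (9.58%) and 2 by limma (7.91%). They were 0 with the 2 groups alone (9.62%), 3 without robust estimation (12.7%) and 0 to 5 leaving out a library (7% to 12.1%). In ConvD against GF+SCFA (1 as reported, 18.4%) they were 4 by DESeq2 (17.3%), 3 by limma (15%) and 0 with the 2 groups alone (19.4%). They were 4 without robust estimation (18.6%) and 0 to 5 leaving out a library (11.4% to 19.7%). In GF+SCFA against GF (0 as reported) 1 was called by DESeq2 (0.681%) and 0 to 0 leaving out a library. All genes called leaving out a library were 849 to 1466 in ConvD against GF, 0 to 173 in GF+SCFA against GF (173 without GF replicate 3) and 1383 to 2393 in ConvD against GF+SCFA. Limma gave 952 in ConvD against GF. In GF+SCFA against GF, where 5 were called, library totals gave 9, DESeq2 82, no filter 24, limma 1 and no robust estimation 1.

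The log2 fold change of Mlxipl in ConvD against GF was 0.03 with upper-quartile factors, 0.05 with library totals and 0.03 by limma, and -0.15 to 0.12 leaving out a library. That of Elovl6 in ConvD against GF+SCFA was 0.03, 0.05 and 0.01 under those settings and -0.18 to 0.21 leaving out a library. Leaving out a library gave -0.11 to 0.29 for Srebf1 and -0.06 to 0.38 for Acaca in ConvD against GF, and -0.08 to 0.01 for Acly in GF+SCFA against GF. Upper-quartile factors and library totals moved the median of all genes in ConvD against GF by 0.06 and 0.08. The cause of these changes was not tested.

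Whether the replicate numbers pair the livers could not be settled. Deviations of same-numbered livers correlated at -0.08 to 0.19, above 0.1 in 1 of 9 pairs, and those of the 18 other pairs at -0.14 to 0.14. Of the 9 livers, 5 correlated best with their own number. With the replicate number as a block, 0 lipogenic genes were called in ConvD against GF (Acly adjusted p = 0.0564), 0 in GF+SCFA against GF and 3 in ConvD against GF+SCFA (Srebf1, Acly and Fasn). All genes called under the block were 1514, 5 and 2195 in that order of comparisons.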
